A study of Homo sapiens with 16 samples.

Results

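Enzalutamide (ENZ) or apalutamide (APA) given together with dihydrotestosterone (DHT) was compared with vehicle (VEH) in LNCaP cells, to find the genes that were not returned to the androgen-deprived state. The comparison used 6 of the 16 libraries of the series: 2 of ENZ.DHT, 2 of APA.DHT and 2 of VEH, each pair holding a replicate 1 and a replicate 2. LNCaP is an established human prostate cancer line that responds to androgen and depends on it for growth. All cells were kept for 72 h in RPMI medium with 5% fetal bovine serum and then depleted of steroid for 48 h in 5% charcoal-stripped serum. Treatment then lasted 48 h. ENZ.DHT and APA.DHT received 10 nM DHT with 10 µM of the antagonist, and VEH received the solvents of both, ethanol and DMSO. The remaining libraries enter only as a guide and in the shared estimate of spread: DHT with no antagonist (DHT), each antagonist without DHT (ENZ.VEH, APA.VEH) and the bicalutamide groups. One cell line was used, so the replicates are separate samples of the same line, and every p-value measures the spread between such samples.

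Androgens such as DHT change transcription in prostate cells, raising some genes, the kallikreins among them, and lowering others. Enzalutamide and apalutamide are antiandrogens, drugs that block this response. Both are diarylthiohydantoins, and apalutamide differs from enzalutamide by a spirocyclobutane in place of the gem-dimethyl group and by a pyridine ring in place of a benzene ring. Vehicle-treated cells in stripped serum are the androgen-deprived reference state, and the level of each gene with antagonist and DHT was set against it.

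Expression was given as TPM, a level per unit of transcript length that is scaled to a fixed total in each library. TPM keeps no read depth, so precision was read from the spread between samples. Between 15021 and 15242 genes stood at a TPM of 1 or more in each of the 6 libraries, and mitochondrial transcripts held 15.9% to 19.4% of the total. Replicates of ENZ.DHT and of APA.DHT were further apart than those of VEH, with 5.71%, 6.17% and 2.45% of genes differing more than 2-fold. All 10 luminal prostate markers were present, with a summed level of 3280 to 3560 TPM in VEH and 2530 to 3290 TPM with antagonist plus DHT. Of 6 basal epithelial markers 1 reached a TPM of 1 in any of the 6 libraries (summed 6.45 to 10.3 TPM in VEH, 6.41 to 11.3 TPM with antagonist plus DHT). Of 8 stromal markers 3 did (33.7 to 38.2 and 27.9 to 33.6 TPM, with DCN at 0 in all 6), and of 9 endothelial and immune markers 2 did (3.25 to 8.11 and 2.26 to 4.24 TPM, with CDH5, CD3E and MS4A1 at 0). In bulk RNA, fewer cells of a type and less RNA per cell cannot be told apart.

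No gene was called between antagonist plus DHT and vehicle. Of the 8 genes with the smallest unadjusted p above vehicle, among those with a mean TPM of 5 or more in either group and the same side in both replicates, 4 lay in the kallikrein cluster, whose coding members are secreted serine proteases: KLK3 stood 2.30 log2 units above vehicle, KLK2 2.06, KLK4 1.42 and the pseudogene KLKP1 1.42. Genes below vehicle were more numerous as deposited, more so for longer transcripts, with EIF5A2 at -0.88. Fold changes are on the log2(TPM + 1) scale and so are too small for weakly expressed genes. With limma, replicate number as a block and Benjamini-Hochberg adjustment, 0 of 16636 genes passed an adjusted p of 0.05 (0% called), and the smallest adjusted p was 0.11. Single libraries decided the nearest calls: without APA.DHT replicate 2, KLK3, KLK2 and KLK4 were called (adjusted p 0.0089, 0.018 and 0.02), and without APA.DHT replicate 1, KLK3 and EIF5A2 were (both 0.041). At an unadjusted p under 0.05, 423 genes (2.54%) were higher and 2541 (15.3%) were lower. In the longest of 5 equal classes by transcript length 20 were higher and 837 lower, and in the shortest 157 and 151. The median difference of the longest class was -0.43 in replicate 1 and -0.06 in replicate 2, and the cause was not tested. DHT alone against the same vehicle libraries called 4559 genes (27.4%), 1762 higher and 2797 lower as deposited, and 2756 higher and 2264 lower under median-ratio scaling.

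The direction was read also within each replicate number. Both antagonist libraries stood above the vehicle library of their own number, in both numbers, for 1385 genes (8.33%), and below it for 4634 (27.9%). All 4 antagonist libraries lay above both vehicle libraries for 531 genes (3.19%) and below both for 2044 (12.3%). The median difference of all genes was -0.11, so a gene near that value stood with the bulk of the transcriptome. Dividing each library by its median ratio to the others moved the median of all genes to 0.00, and a gene's value shifted up by about as much.

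The promoters of KLK3 and KLK2 are shown because these neighbouring paralogs carried the greatest distances from vehicle among the genes of the androgen-induced list. Each run is the 250 bases before the RefSeq gene start in GRCh38.p14 on the plus strand, at chr19:50854665-50854914 for KLK3 and chr19:50873189-50873438 for KLK2. Capitals mark the stretch that the pair shares around the androgen response element motif of KLK3.
KLK3: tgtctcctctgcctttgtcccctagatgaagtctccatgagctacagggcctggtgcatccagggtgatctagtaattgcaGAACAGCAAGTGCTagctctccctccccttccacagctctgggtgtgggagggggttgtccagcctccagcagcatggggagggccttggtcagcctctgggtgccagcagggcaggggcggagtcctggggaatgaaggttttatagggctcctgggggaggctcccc
KLK2: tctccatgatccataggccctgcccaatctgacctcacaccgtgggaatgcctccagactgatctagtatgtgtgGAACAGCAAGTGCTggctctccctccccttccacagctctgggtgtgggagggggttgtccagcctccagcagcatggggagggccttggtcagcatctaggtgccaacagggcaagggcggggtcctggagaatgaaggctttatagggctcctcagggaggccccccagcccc
Over 244 aligned bases, 185 were identical (75.8%). The capital stretch began 169 bases before the start of KLK3 and 175 bases before that of KLK2. It was taken from this pair of windows, and they were the 2 of 35116 promoter windows of this length that held it (0.0057%). The letters AGAACA, a core of that element, searched on both strands, occurred once in the KLK3 window, 170 bases before the start, and were not in the KLK2 window. They occurred in 12.4% of all windows, and the full palindrome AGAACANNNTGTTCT occurred in 1 of them (0.00285%). These matches describe letters only.

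KLK3 (chromosome 19, 50854915 to 50860764) encodes prostate-specific antigen. It stood at 53.04 and 24.0 TPM in the VEH libraries of replicates 1 and 2, at 296 and 115 TPM under ENZ.DHT and at 340 and 90.4 TPM under APA.DHT. DHT alone gave 4102 and 2422 TPM. Every antagonist library lay above both vehicle libraries and far below both DHT libraries. The difference from vehicle was 2.30 (SE 0.28, limma adjusted p 0.11), with 2.56 in replicate 1 and 2.04 in replicate 2. That difference was 35.8% of the log2 distance between VEH and DHT alone, or 5.33% of the distance in TPM, and both comparisons use the same vehicle libraries.

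KLK2 (chromosome 19, 50873439 to 50880567) encodes a related protease that can activate the KLK3 product. Its levels were 4.78 and 3.60 TPM in VEH, 34.2 and 15.1 TPM under ENZ.DHT, 34.6 and 9.53 TPM under APA.DHT, and 494 and 485 TPM in DHT. All 4 antagonist libraries were above both vehicle libraries, and those of replicate 1 were above those of replicate 2. The difference was 2.06 (SE 0.36, limma adjusted p 0.20). The authors' counting can divide reads that match both KLK2 and KLK3, so the split between the pair is uncertain.

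KLK4 (chromosome 19, 50906351 to 50911395), another protease of the cluster, stood at 42.0 and 22.1 TPM in VEH, 136 and 62.8 TPM under ENZ.DHT and 120 and 46.7 TPM under APA.DHT. With DHT alone it was at 523 and 407 TPM. The groups did not overlap, and the difference was 1.42 (SE 0.21, limma adjusted p 0.11). KLKP1 (chromosome 19, 50882096 to 50896398), a transcribed pseudogene that lies between KLK2 and KLK4, had 2.06 and 1.00 TPM in VEH, 8.92 and 3.10 TPM under ENZ.DHT and 9.68 and 3.37 TPM under APA.DHT. It was at 13.1 and 12.7 TPM in DHT. The difference of 1.42 (SE 0.25, limma adjusted p 0.20) was 56.8% of the log2 distance to DHT alone. Without DHT, KLKP1 was already at 5.33 and 4.08 TPM in ENZ.VEH, and at 2.7 and 1.04 TPM in APA.VEH. Reads of a pseudogene can also be shared with its relatives.

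TRPM8 (chromosome 2, 233917373 to 234019522), a cold-activated cation channel of prostate epithelium, was at 2.64 and 2.18 TPM in VEH. It was at 5.52 and 5.73 TPM under ENZ.DHT, at 7.61 and 5.15 TPM under APA.DHT and at 39.1 and 33.8 TPM in DHT. Its excess over vehicle was almost the same in replicates 1 and 2, at 1.04 and 1.02, and the difference was 1.03 (SE 0.16, limma adjusted p 0.16). No antagonist level overlapped the vehicle levels.

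GPC5-AS1 (chromosome 13, 92701389 to 92721614), a long noncoding RNA antisense to GPC5, was the only one of the 8 genes in which DHT alone did not stand above vehicle in either replicate. It was at 3.33 and 2.36 TPM in VEH, 17.7 and 5.49 TPM under ENZ.DHT and 14.7 and 5.09 TPM under APA.DHT, against 2.51 and 1.31 TPM in DHT. The difference was 1.45 (SE 0.23, limma adjusted p 0.16), and that of DHT alone against vehicle was -0.42 (limma adjusted p 0.28). Without DHT, GPC5-AS1 was at 5.48 and 2.84 TPM in ENZ.VEH and 4.42 and 3 TPM in APA.VEH. Antagonist without DHT gave 0.34 against vehicle, and antagonist with against without DHT gave 1.11. Both bicalutamide groups were above vehicle too, at 9.77 and 6.15 TPM without DHT and 12.66 and 5.24 TPM with it. The strand setting of the authors' counting was not given in the sources used here, so reads of this gene and of GPC5 cannot be told apart.

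The last pair of these 8 genes stood nearer to vehicle. TTR, the thyroid hormone carrier transthyretin, was at 4.83 and 4.04 TPM in VEH, 7.90 and 7.55 TPM under ENZ.DHT and 11.1 and 8.25 TPM under APA.DHT, a difference of 0.83 (SE 0.17, limma adjusted p 0.28). DHT alone had 5.59 and 7.85 TPM, within or below the range of the antagonist libraries. PTMAP2, a pseudogene of prothymosin alpha, was at 9.59 and 18.2 TPM in VEH, 16.4 and 22.8 TPM under ENZ.DHT and 17.3 and 25.5 TPM under APA.DHT. It lay above vehicle within each replicate, but the groups overlapped when replicates were mixed. Its difference of 0.57 (SE 0.11) had a limma adjusted p of 0.25. Antagonist without DHT already gave 0.43 against vehicle, and antagonist with against without DHT gave 0.13. DHT alone had 20.2 and 29.8 TPM.

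**Figure D1:**
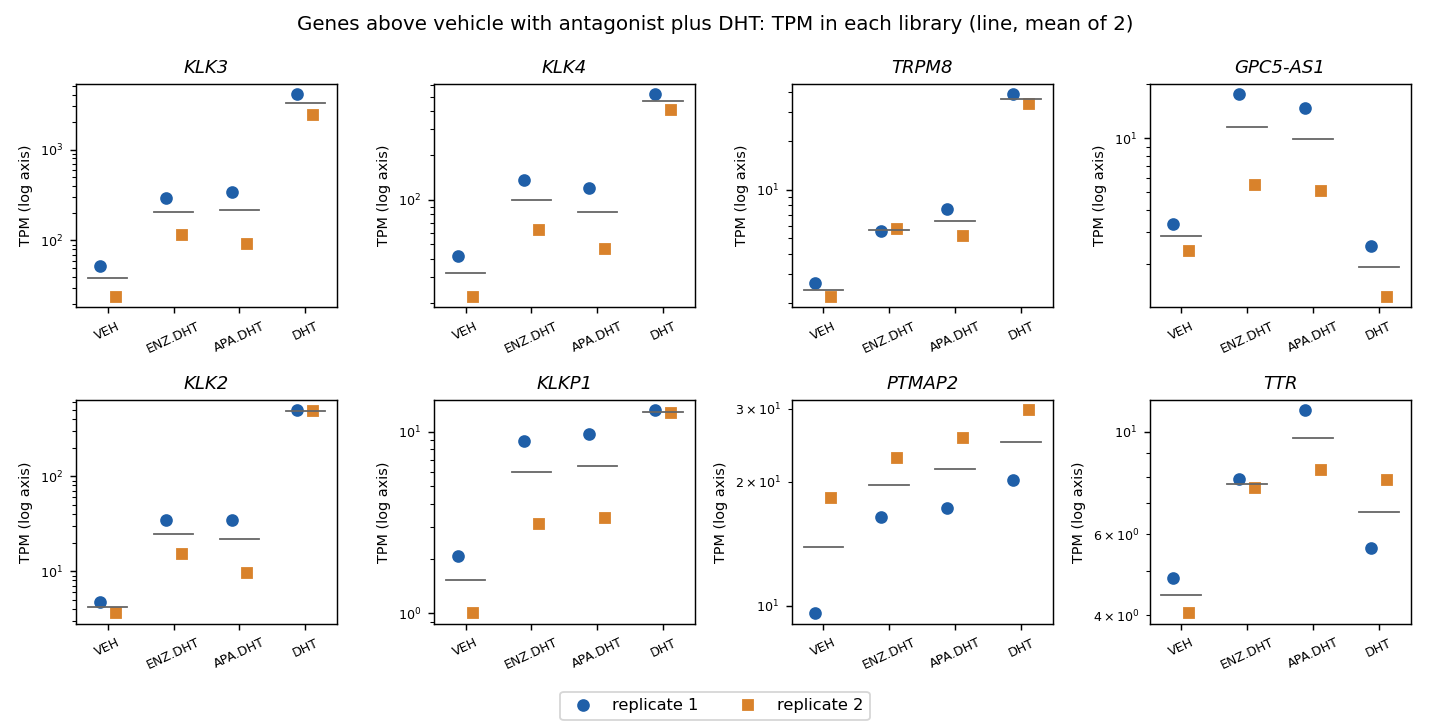
TPM on a log axis for the 8 genes above vehicle with the smallest unadjusted p, in each VEH, ENZ.DHT, APA.DHT and DHT library. Circles are replicate 1, squares replicate 2 and lines the mean of 2 libraries. KLK3, at 24.0 and 53.04 TPM in VEH, had 90.4 to 340 TPM with antagonist plus DHT, and GPC5-AS1 is the gene whose DHT libraries lie below its vehicle libraries.

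Further genes stood above vehicle in all 4 antagonist libraries, and were named after their values were seen. AZGP1, a secreted zinc-binding glycoprotein, was at 39.5 and 39.0 TPM in VEH, 74.9 and 51.8 TPM under ENZ.DHT and 81.4 and 57.6 TPM under APA.DHT, a difference of 0.72 (SE 0.15, limma adjusted p 0.28). KCNN2, a calcium-activated potassium channel, was at 23.0 and 21.1 TPM in VEH, 30.6 and 32.1 TPM under ENZ.DHT and 32.6 and 33 TPM under APA.DHT, a difference of 0.52 (SE 0.12, limma adjusted p 0.28). Both vehicle levels were below every antagonist level in each of these genes. EAF2, a transcription elongation factor partner, had a difference of 0.83 (SE 0.21, limma adjusted p 0.28) that was 1.3 in replicate 1 and 0.36 in replicate 2. C5orf46 was at 4.61 and 4.36 TPM in VEH, 12.5 and 5.11 TPM under ENZ.DHT and 11.9 and 5.87 TPM under APA.DHT, while DHT alone had 3.21 and 2.51 TPM. Like GPC5-AS1, C5orf46 was above vehicle with antagonist plus DHT and below it with DHT alone (-0.51, limma adjusted p 0.12).

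A 2-fold excess in both antagonist libraries over the vehicle library of their number was seen for 121 genes in replicate 1 and 29 in replicate 2, and for 7 genes in both. These 7 were KLK2, KLK3, KLK4, KLKP1, the small nuclear RNA RNU4-2, and AC016629.1 and AC135983.6. A 2-fold deficit was seen for 201 genes in replicate 1 and 72 in replicate 2, and for 8 in both (AC091167.1, AC106873.2, AL353804.3, AP001160.5, RN7SKP175, RNA5SP352, SCARNA16 and SEPTIN14P19). These genes were named from their values on the log2(TPM + 1) scale with no mean TPM required, and AC135983.6 was listed at 0 in both vehicle libraries. For DHT alone a single library per replicate was compared, and 551 and 603 genes were at least 2-fold higher and 815 and 680 at least 2-fold lower.

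Among the genes below vehicle, the 8 with the smallest unadjusted p were EIF5A2, SNORA71B, AHDC1, DTNA, ATF1, KLHL24, RAI1 and IRX5, and none was called. The naming rule asked for a level below the vehicle library of the same number, and in all 8 the antagonist libraries also lay below both vehicle libraries. EIF5A2 (chromosome 3, 170888418 to 170908637), a translation factor that carries hypusine, was at 6.98 and 8.78 TPM in VEH, 3.51 and 4.13 TPM under ENZ.DHT and 4.21 and 3.38 TPM under APA.DHT. Its difference was -0.88 (SE 0.13, limma adjusted p 0.11). DHT alone had 4.76 and 6.52 TPM, above every antagonist library, and ENZ.VEH had 3.78 and 4 TPM against 5.70 and 6.80 TPM in APA.VEH. Both bicalutamide groups also lay below vehicle, at 4.28 and 5.20 TPM without DHT and 5.11 and 5.37 TPM with it.

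SNORA71B (chromosome 20, 38425195 to 38425330), a small nucleolar RNA inside the host gene SNHG17, was at 8.56 and 6.43 TPM in VEH, 0.80 and 1.70 TPM under ENZ.DHT and 1.73 and 3.03 TPM under APA.DHT. DHT alone had 5.87 and 7.41 TPM, near vehicle. The difference with antagonist plus DHT was -1.64 (SE 0.29, limma adjusted p 0.20). Without DHT, SNORA71B was already below vehicle, at 4 and 3.62 TPM in ENZ.VEH and 2.82 and 3.66 TPM in APA.VEH. Both bicalutamide groups were below vehicle too, at 3.12 and 5.1 TPM without DHT and 4.33 and 1.69 TPM with it. Such RNAs are short, are not usually polyadenylated and share reads with the host, so the level in a polyA library is uncertain.

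In 4 of the remaining genes the antagonist libraries were near the level of DHT alone. AHDC1 (chromosome 1, 27534245 to 27604227), a DNA-binding protein gene, was at 15.8 and 14.2 TPM in VEH, 8.62 and 9.34 TPM under ENZ.DHT, 8.32 and 10.2 TPM under APA.DHT and 8.58 and 8.42 TPM in DHT, a difference of -0.66 (SE 0.12, limma adjusted p 0.20). ATF1 (chromosome 12, 50763459 to 50821162), a cAMP-responsive transcription factor, was at 21.6 and 24.9 TPM in VEH, 13.7 and 15.6 TPM under ENZ.DHT, 12.6 and 18.7 TPM under APA.DHT and 13.3 and 18.4 TPM in DHT. For KLHL24, an adaptor of a ubiquitin ligase, the difference was -0.66 (SE 0.13) against -0.84 for DHT alone, and for RAI1, a chromatin regulator, it was -0.41 (SE 0.08) against -0.46. RAI1 overlaps SREBF1 and other genes in RefSeq, and KLHL24 overlaps an uncharacterised locus.

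IRX5 and DTNA stood between VEH and DHT. IRX5 (chromosome 16, 54930865 to 54934485), a homeobox transcription factor, was at 9.64 and 6.93 TPM in VEH, 6.03 and 4.15 TPM under ENZ.DHT, 6.38 and 4.90 TPM under APA.DHT and 2.81 and 2.55 TPM in DHT. Its difference was -0.54 (SE 0.11, limma adjusted p 0.28), 41.2% of the log2 distance to DHT alone, and was alike in replicates 1 and 2, at -0.56 and -0.52. DTNA, which encodes dystrobrevin alpha, was at 22.9 and 16.4 TPM in VEH, 13.6 and 11.4 TPM under ENZ.DHT, 14.7 and 13.4 TPM under APA.DHT and 9.09 and 6.41 TPM in DHT. Without DHT it was already at 14.1 and 11.1 TPM in ENZ.VEH and 16.9 and 13.8 TPM in APA.VEH.

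**Figure D2:**
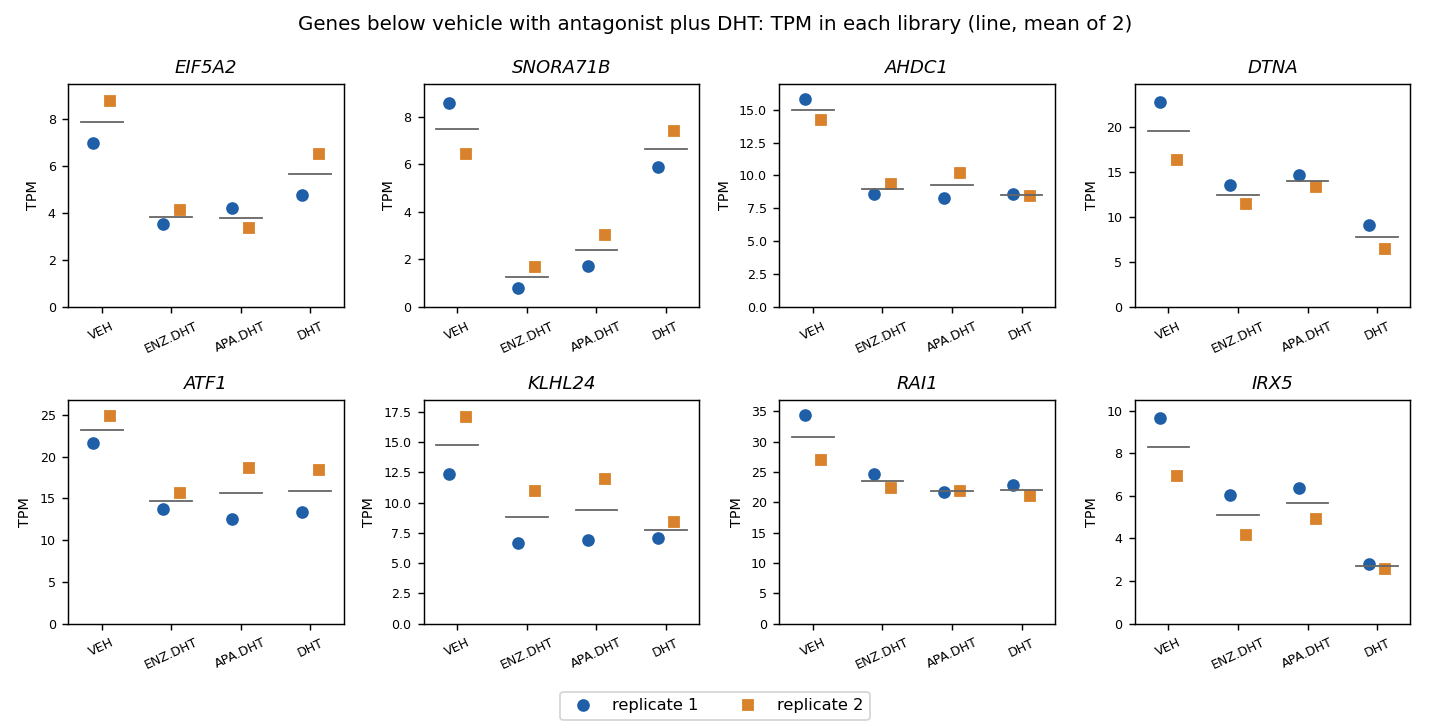
TPM on a linear axis from 0 for the 8 genes below vehicle with the smallest unadjusted p, with circles for replicate 1, squares for replicate 2 and lines for the mean of 2 libraries. In IRX5 the antagonist libraries (4.15 to 6.38 TPM) lie between VEH (6.93 and 9.64 TPM) and DHT (2.55 and 2.81 TPM), while in EIF5A2 they lie below both.

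The androgen-induced list held 34 genes, all measured. DHT alone raised 29 of them (limma adjusted p under 0.05, against 10.6% of all genes called higher) and lowered 0 (against 16.8%). With antagonist plus DHT none was called. Of the 34, 9 lay above and 2 below the vehicle library of their number in both replicates, against 8.33% and 27.9% of all genes, and 7 were higher and 2 lower at an unadjusted p under 0.05, against 2.54% and 15.3%. The median difference was -0.03 (0.04 under median-ratio scaling), against -0.11 over all genes and 1.67 for this list with DHT alone. Of the 26 members with a difference of 1 or more for DHT alone, 13 had a mean above vehicle and 13 below, and 5 stood 0.5 or more above it: KLK2, KLK3, KLK4, TRPM8 and EAF2.

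TMPRSS2 and FKBP5, a surface protease and a chaperone partner of steroid receptors, were at the vehicle level. TMPRSS2 was at 46.4 and 31.1 TPM in VEH, 49.0 and 37.1 TPM under ENZ.DHT and 46.1 and 27.2 TPM under APA.DHT, against 429 and 279 TPM in DHT. The groups overlapped, and the difference was 0.03 (SE 0.10, limma adjusted p 0.86). FKBP5 was at 11.99 and 13.5 TPM in VEH, 8.56 and 13.6 TPM under ENZ.DHT, 9.47 and 14.4 TPM under APA.DHT and 81.4 and 92.8 TPM in DHT, a difference of -0.17 (SE 0.11, limma adjusted p 0.38). For FKBP5 the replicate 1 antagonist libraries were below both vehicle libraries, and those of replicate 2 were above both.

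The 31 induced genes other than KLK2, KLK3 and KLK4 had a mean difference of -0.19 in replicate 1 and 0.13 in replicate 2, where DHT alone gave 1.51 and 1.70. The kallikreins were above vehicle in both replicates, and the mean of the rest took opposite signs in them. PLPP1, a lipid phosphatase, at 0.21, and SLC45A3, the prostate transporter prostein, at 0.34, also had all 4 antagonist libraries above both vehicle libraries, and were named after their values were seen. NCAPD3 (-0.48), a condensin subunit, and ZBTB10 (-0.40), a zinc finger protein, were the pair below vehicle in both replicates.

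**Figure D3:**
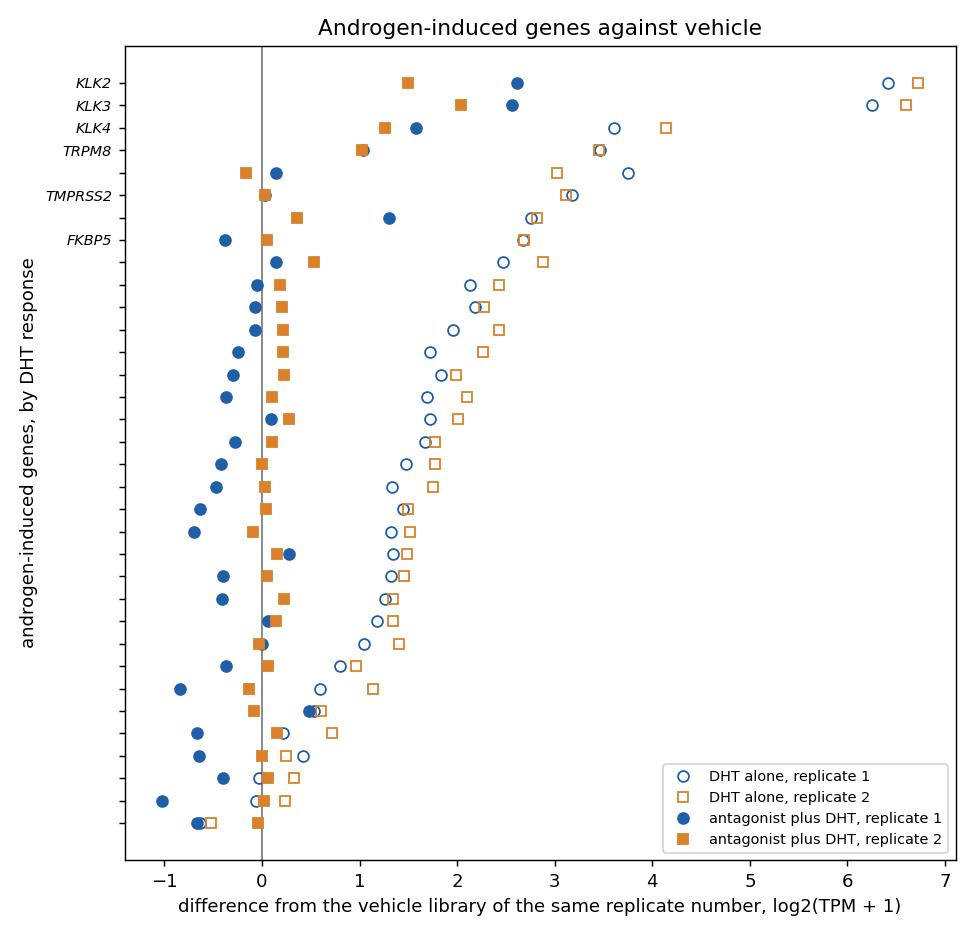
Difference from the vehicle library of the same replicate number, in log2(TPM + 1), for the 34 androgen-induced genes ordered by their response to DHT alone, with some gene names left out. Filled symbols are the mean of ENZ.DHT and APA.DHT, open symbols DHT alone, circles replicate 1 and squares replicate 2. Most filled symbols lie near 0, with KLK3 at 2.56 and 2.04 and KLK2 at 2.61 and 1.5.

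Androgen-repressed genes stood below vehicle more often than above it. Of 18 listed genes 14 were measured. DHT alone lowered 10 of them, against 16.8% of all genes. It raised 2, the glucuronidation enzymes UGT2B11 and UGT2B28, against 10.6% of all genes. With antagonist plus DHT 0 were called, 7 were lower and 0 higher at an unadjusted p under 0.05, against 15.3% and 2.54% of all genes, and 11 lay below and 1 above the vehicle library of their number in both replicates, against 27.9% and 8.33% of all genes. The median was -0.34, with -0.57 in replicate 1 and -0.10 in replicate 2, against -2.27 with DHT alone.

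UGT2B15, an enzyme that conjugates androgens, was at 114 and 193 TPM in VEH, 40.2 and 170 TPM under ENZ.DHT and 54.8 and 176 TPM under APA.DHT. Its antagonist libraries were further below vehicle in replicate 1 than in replicate 2. BCHE, which encodes butyrylcholinesterase, was at 89.4 and 106 TPM in VEH, 61.5 and 89.4 TPM under ENZ.DHT, 66.3 and 98.4 TPM under APA.DHT and 9.84 and 13.4 TPM in DHT, so its antagonist libraries lay far above both DHT libraries.

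No member of the remaining lists was called either. Of 42 S phase genes DHT alone raised 38, and of 48 G2/M genes it raised 45, against 10.6% of all genes. With antagonist plus DHT their medians were -0.17 and -0.09 (-0.05 and 0.01 under median-ratio scaling), with 0 and 0 higher and 4 and 1 lower at an unadjusted p under 0.05, where 15.3% of all genes were lower. Antagonist without DHT against vehicle gave medians of -0.20 and -0.37, against -0.01 over all genes. Antagonist with against without DHT gave 0.04 and 0.31, against -0.09. There 11 of the 48 G2/M genes were higher and 0 lower at that threshold, against 616 and 3279 of 16636 genes. For S phase 2 were higher and 1 lower. MKI67, a proliferation antigen, was at 2.18 and 9.28 TPM in VEH, 1.11 and 9.99 TPM under ENZ.DHT, 2.19 and 8.46 TPM under APA.DHT and 11.7 and 24.4 TPM in DHT. The replicates differed more than the antagonist groups did, and the difference was -0.15 (SE 0.25, limma adjusted p 0.74). MCM2, a subunit of the replicative helicase, was at 17.3 and 26.0 TPM in VEH, 9.17 and 26.5 TPM under ENZ.DHT and 10.7 and 28.4 TPM under APA.DHT. It lay below vehicle in replicate 1 and slightly above in replicate 2 (difference -0.34, SE 0.17, limma adjusted p 0.29).

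Lipid synthesis genes, most of them raised by DHT alone, had medians below 0 as deposited. Of 24 measured cholesterol synthesis genes DHT alone raised 20 and lowered 1 (against 10.6% and 16.8% of all genes), and with antagonist plus DHT 1 was higher and 1 lower at an unadjusted p under 0.05, FDPS at 0.19 and TM7SF2 at -0.20. The median was -0.07, and 0.06 under median-ratio scaling. Of 20 fatty acid synthesis genes DHT alone raised 12 and lowered 2, and with antagonist plus DHT 9 were lower and 0 higher at that threshold, against 15.3% and 2.54% of all genes. Their median was -0.22 (-0.09 under median-ratio scaling), with -0.32 in replicate 1 and -0.03 in replicate 2. FADS1, a fatty acid desaturase, was at 27.0 and 36.7 TPM in VEH, 15.0 and 28.8 TPM under ENZ.DHT and 15.8 and 31.4 TPM under APA.DHT (difference -0.53, SE 0.16, limma adjusted p 0.28). SREBF1, which encodes a transcription factor of lipid synthesis, was at 514 and 386 TPM in VEH, 308 and 376 TPM under ENZ.DHT and 329 and 378 TPM under APA.DHT.

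Ribosomal protein genes were the list with the highest median, 0.17, and 72 of 78 had a positive difference. At an unadjusted p under 0.05, 9 were higher and 0 lower, against 2.54% and 15.3% of all genes, and 36 lay above the vehicle library of their number in both replicates, against 8.33% of all genes. RPL31 was at 2415 and 2864 TPM in VEH, 2986 and 3216 TPM under ENZ.DHT and 3019 and 3037 TPM under APA.DHT (difference 0.22, SE 0.08, limma adjusted p 0.28). DHT alone raised 0 and lowered 17 of the 78, against 10.6% and 16.8% of all genes. The list median was 0.28 in replicate 1 and 0.03 in replicate 2, and these genes share reads with many processed pseudogenes.

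Other lists gave a few members each. Of 24 secretory transport genes 5 were lower at an unadjusted p under 0.05, against 15.3% of all genes, among them SEC31A (-0.32) and SEC24A (-0.50), coat proteins of vesicles that leave the endoplasmic reticulum. Their median was -0.19, with -0.34 in replicate 1 and -0.03 in replicate 2, and SEC24A was at -0.90 and -0.11 in the same order. Of 13 genes shared with the glucocorticoid response 3 were lower, against the same 15.3%: SGK1 (-0.69), KLF9 (-0.54) and CRISPLD2 (-0.46). KLF9 was at -0.87 in replicate 1 and -0.21 in replicate 2 and CRISPLD2 at -0.78 and -0.14, while SGK1 was alike in both, at -0.66 and -0.72. SGK1, a kinase, was at 5.10 and 6.51 TPM in VEH, 2.67 and 2.84 TPM under ENZ.DHT and 3.04 and 4.40 TPM under APA.DHT, and 7 of the 13 lay below the vehicle library of their number in both replicates, against 27.9% of all genes. Of 10 luminal markers 5 were lower, against 15.3% of all genes, with a median of -0.18 (-0.06 under median-ratio scaling) that was -0.35 in replicate 1 and -0.04 in replicate 2. FOXA1 and HOXB13, both transcription factors of prostate epithelium, were at -0.59 and -0.65 in replicate 1 and at -0.13 and -0.04 in replicate 2. SAT1, which acetylates polyamines for export, was at 349 and 249 TPM in VEH, 518 and 271 TPM under ENZ.DHT, 570 and 296 TPM under APA.DHT and 888 and 650 TPM in DHT (difference 0.41, SE 0.12, limma adjusted p 0.28), while ODC1 (-0.28) and SRM (-0.22), enzymes of polyamine synthesis, stood below vehicle.

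Stress and immune lists had medians near that of all genes. Of the amino acid stress genes, 7 lay above and 0 below the vehicle library of their number in both replicates. Over all genes these shares were 8.33% and 27.9%. The median was -0.01 for 21 amino acid stress genes, where DDIT3 was at 45.3 and 39.8 TPM in VEH, 124 and 47.6 TPM under ENZ.DHT and 74.1 and 40.5 TPM under APA.DHT. In DDIT3, a stress-induced transcription factor, the excess was thus seen in replicate 1 (difference 0.60, SE 0.26, limma adjusted p 0.28). Without DHT it was at 108 and 43.6 TPM in ENZ.VEH and 53 and 41.2 TPM in APA.VEH. DHT alone had 26.2 and 27.7 TPM. The median was -0.15 for 18 unfolded protein response genes, -0.06 for 21 interferon response genes and -0.04 for 14 antigen presentation genes. It was -0.10 for 14 p53 targets, -0.13 for 16 hypoxia and glycolysis genes, -0.01 for 10 xenobiotic response genes and -0.09 for 5 neuroendocrine genes. All of these medians but those of the unfolded protein response and hypoxia lists took a positive sign under median-ratio scaling. Of the neuroendocrine genes DHT alone lowered 4, and with antagonist plus DHT ENO2, neuronal enolase, was at 62.9 and 55.1 TPM in VEH, 45.0 and 54.8 TPM under ENZ.DHT, 43.6 and 51.5 TPM under APA.DHT and 16.1 and 15.6 TPM in DHT.

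**Figure D4:**
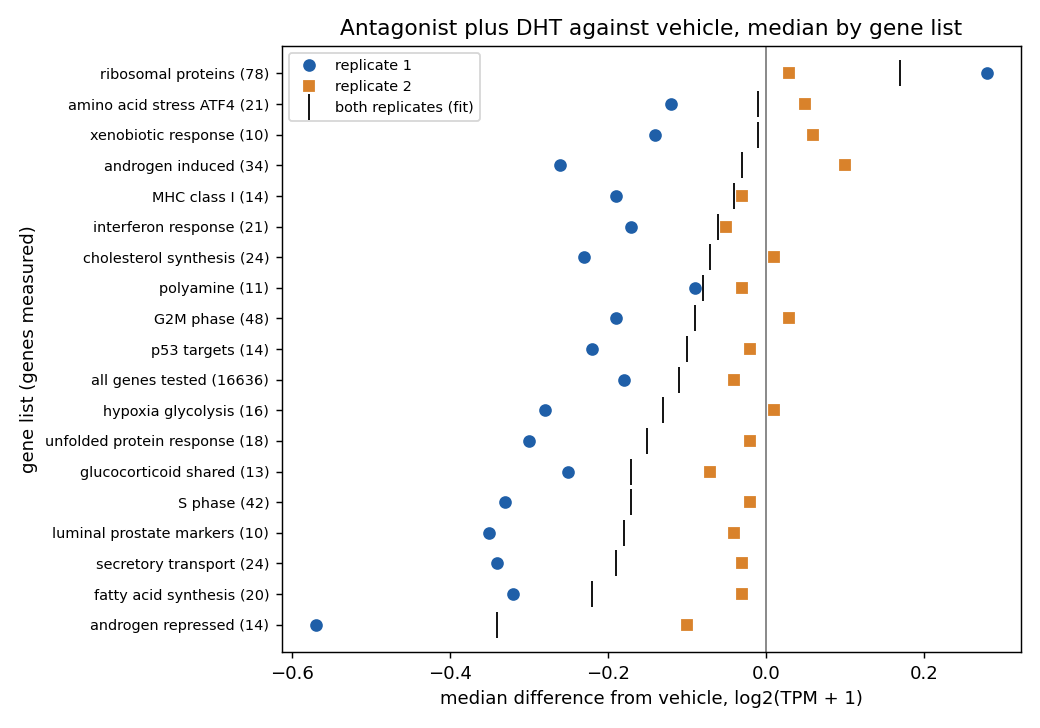
Median difference between antagonist plus DHT and vehicle in log2(TPM + 1) for each gene list with 10 or more measured genes and for all 16636 genes. Circles are replicate 1, squares replicate 2 and bars the fit over both. In replicate 1 the medians run from -0.57 (androgen repressed) to 0.28 (ribosomal proteins), and in replicate 2 from -0.10 to 0.10.

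Replicates 1 and 2 differed in how far the antagonist libraries stood from vehicle. Across 16636 genes the difference in replicate 1 and that in replicate 2, which share no library, had a Pearson r of 0.042, given as a description since genes are not independent. The median over all genes was -0.18 in replicate 1 and -0.04 in replicate 2. In replicate 1 the difference moved with transcript length. Over the 13979 genes (84.0%) with a length, cut into 5 classes of equal size from short to long, the median went through 0.08, -0.11, -0.23, -0.33 and -0.43, and in replicate 2 it stayed between -0.06 and -0.02. ENZ.DHT and APA.DHT gave the same -0.44 in the longest class of replicate 1. DHT alone gave -0.19 there and antagonist without DHT gave 0.01, against the same vehicle library, and antagonist with DHT against antagonist without DHT, which uses no vehicle library, gave -0.44. With the trends on length and GC content removed within each library, a setting chosen after the data were seen, 0 genes were called (2046 at an unadjusted p under 0.05). Then the median of the androgen-repressed list was -0.20, that of the ribosomal proteins 0.19 and that of the androgen-induced list 0.16, and KLK3 stood at 2.38. The median moved to -0.01 for secretory transport and for the genes shared with the glucocorticoid response, to -0.06 for fatty acid synthesis, to -0.04 for the unfolded protein response, to -0.09 for the luminal markers and to -0.08 for S phase.

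**Figure D5:**
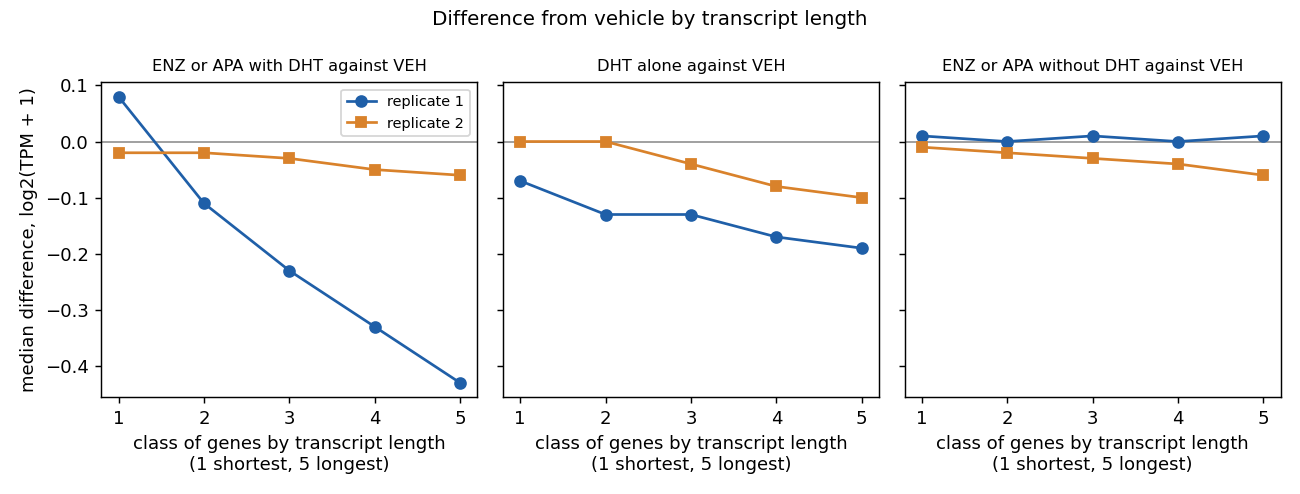
Median difference from the vehicle library of the same replicate in log2(TPM + 1), for 5 equal classes of genes by transcript length, with circles for replicate 1 and squares for replicate 2. The panels are the mean of ENZ.DHT and APA.DHT, DHT alone, and the mean of ENZ.VEH and APA.VEH. The replicate 1 line of antagonist plus DHT runs from 0.08 to -0.43, and that of antagonist without DHT stays between 0.00 and 0.01.

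Enzalutamide and apalutamide were compared at the same dose and time, as 1 pair of compounds. Against vehicle, ENZ.DHT had 1 call (0.00601%), AC008752.1, and APA.DHT had 0, with 2391 and 1439 genes at an unadjusted p under 0.05. Without ENZ.DHT replicate 2 the count for enzalutamide was 33. Between the compounds 1 of 16636 genes was called (0.00601%), also AC008752.1, by limma at an adjusted p of 0.011. AC008752.1 was at 2.7 and 5.42 TPM under ENZ.DHT and was listed at 0 in the other 14 libraries. A listed 0 may also mean that no level could be estimated, and a fold change is left out.

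For the kallikreins no difference between the compounds was detected. APA.DHT minus ENZ.DHT was -0.07 for KLK3 (95% interval -0.79 to 0.64), -0.30 for KLK2 (-1.21 to 0.61) and -0.30 for KLK4 (-0.83 to 0.23), so a difference of about 1 log2 unit in KLK2 would not have been resolved. For TRPM8 it was 0.14 (-0.28 to 0.55), and for TMPRSS2 -0.26 (-0.51 to -0.02, limma adjusted p 1.0). For 94.1% of genes the interval lay within -1 to 1, and the median reach of the interval to either side was 0.36. The median of the G2/M list was 0.21 higher with apalutamide, and that of all genes was 0.02 higher.

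The same antagonist libraries were also set against antagonist without DHT, to see which genes still answered to DHT under the antagonists. Here 6 genes (0.0361%) were called by limma, 5 higher and 1 lower, and without APA.DHT replicate 2 the count was 3226. KLK3 (2.05, SE 0.23, adjusted p 0.011), TRPM8 (1.39, adjusted p 0.0052), KCNN2 (0.77, adjusted p 0.022) and ARHGEF26 (0.61, adjusted p 0.0073), an exchange factor of small GTPases, rose with DHT in the presence of an antagonist. ARHGEF26 was at 65.1 and 51.1 TPM in VEH, 38.7 and 37.7 TPM in ENZ.VEH, 32.7 and 27.9 TPM in APA.VEH, 54.1 and 48.3 TPM under ENZ.DHT and 59.7 and 48.6 TPM under APA.DHT. It was thus low with antagonist and no DHT (-0.75 against vehicle) and near vehicle with both (-0.13). ARHGEF26 overlaps an antisense gene. The other calls were AC008752.1 and RNU5E-1, a spliceosomal RNA with 8.68 and 11.9 TPM in APA.VEH and 0 elsewhere. Against vehicle, antagonist without DHT called 2 genes (0.012%), ARHGEF26 and RNU5E-1. KLK3 was at 0.24 there (limma adjusted p 1.0), a mean over compounds that differed. It had 72.9 and 71.5 TPM in ENZ.VEH and 30.4 and 20.4 TPM in APA.VEH, against 53.04 and 24.0 TPM in VEH. KLK2 and KLK4 also stood above both vehicle libraries in ENZ.VEH, and below the vehicle library of their number in APA.VEH.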

How the data were processed

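Libraries were made from polyadenylated RNA with a stranded kit and sequenced as 125 bp paired reads. Per the submitters' processing notes, the authors used FastQC 0.11.9, Trim Galore 0.6.5, STAR 2.7.2b and RSEM 1.3.3 with GRCh38. The deposited values are TPM per gene symbol, 1 column per library, with 60642 rows. TPM holds no depth, so no counting interval is given.

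The 16636 genes at a TPM of 1 or more in 2 or more of the 16 libraries were fitted as log2(TPM + 1) with limma 3.58.1 (trend) in R 4.3.3. The model had a mean for each of the 8 groups and replicate number as a block (7 residual degrees of freedom), with Benjamini-Hochberg adjustment over all genes. The labels give the numbers but no shared batch. Differences between replicates correlated across genes with r of 0.294 to 0.635 between the 3 groups, and of at least 0.204 between any of the 28 pairs of groups.

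The comparison, the 22 gene lists (written from general knowledge) and the naming rule were chosen with earlier results of these data known. The rule named 6 reference genes, the 8 genes in each direction with the smallest unadjusted p, a mean TPM of at least 5 and both antagonist libraries beyond the vehicle library of their number, and up to 4 members of each list by adjusted p, of which those that bear on a result are given. Transcript length and GC came from Gencode transcripts, and positions and promoters from RefSeq GRCh38.p14. On simulated data the median estimate lay near the change put in, and the check did not require every change to be called. The simulation held no shift with transcript length particular to the antagonist libraries. 16 alternatives were run, 1 chosen after seeing the data.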

Additional observations from a re-analysis of the deposited data

Results flagged for a closer look

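AC008752.1 differed between the compounds: it was at 2.7 and 5.42 TPM under ENZ.DHT and listed at 0 in APA.DHT and in every other group, with a limma adjusted p of 0.011 for APA.DHT against ENZ.DHT over 16636 genes. It was not called with a pseudocount of 0.1, with only the 6 libraries compared, with the length and GC trends removed, or without APA.DHT replicate 1 or 2, and a filter of TPM 5 in 2 libraries left it out.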

How the results depend on the processing

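TPM holds no depth, so the number of libraries limits what can be seen. For antagonist plus DHT against vehicle, 11 of 16 alternatives called 0 genes by limma. At an unadjusted p under 0.05 the count was 2964, 1051 with no replicate block, 450 without VEH replicate 1, 1105 without ENZ.DHT replicate 1, 1156 without APA.DHT replicate 1, 5270 without ENZ.DHT replicate 2 and 5616 without APA.DHT replicate 2. Leaving out 1 library called 0 to 3 genes: AC104333.2, AL136038.1 and AL390195.2 without VEH replicate 2, AC106873.7 and SNORA78 without ENZ.DHT replicate 2, KLK3 and EIF5A2 without APA.DHT replicate 1, and KLK3, KLK2 and KLK4 without APA.DHT replicate 2. The cause was not tested.

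With no filter on low values the count was 5 in that comparison (AC073115.2, AL122127.1, LINC01402, THA1P and Z98742.3, all lower), 12 for ENZ.DHT against VEH, 4 for APA.DHT against VEH, 8 for APA.DHT against ENZ.DHT and 9 for antagonist without DHT. With only the 6 libraries, with a pseudocount of 0.1 and with a filter of TPM 5 the count for ENZ.DHT against VEH and for APA.DHT against ENZ.DHT was 0. With the length and GC trends removed these were 2 (AC008752.1 and KLK4, both at a limma adjusted p of 0.044) and 0. Antagonist without DHT had 1 call with no replicate block, a pseudocount of 0.1, a filter of TPM 5, median-ratio scaling or those trends removed. The counts without 1 library ran from 0 to 33 (ENZ.DHT against VEH), 0 to 2 (APA.DHT against VEH), 0 to 10 (between the compounds), 2581 to 5012 (DHT alone), 0 to 4 (antagonist without DHT) and 4 to 3226 (antagonist with against without DHT).

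The replicate numbers are given by the labels but no shared culture is. With no replicate block DHT alone called 1709 genes and antagonist with against without DHT called 1, and no call changed for ENZ.DHT or APA.DHT against VEH or between the compounds.

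Of 1179 values of named genes under the alternatives, 9 changed sign: TMPRSS2 was at -0.01 without VEH replicate 2 and -0.04 without APA.DHT replicate 1, MKI67 at 0.04 without ENZ.DHT replicate 1 (-0.35 without ENZ.DHT replicate 2), and RNU5E-1, at 0 as reported, at -0.01 without ENZ.DHT or APA.DHT replicate 1 and -0.03 without VEH replicate 2 (0.03 without VEH replicate 1). With the length and GC trends removed FKBP5 was at 0.08, MKI67 at 0.12 and ARHGEF26 at 0.07. KLK3 kept 2.02 to 2.58, KLK4 1.22 to 1.61 and EIF5A2 -1.03 to -0.68.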
